A study of Mus musculus with 9 samples.

Results

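The genes described here are 9 components and targets of NODAL and BMP signalling in mouse embryonic stem cells: Nodal, Lefty1, Lefty2, Tdgf1, Smad7, Skil, Id1, Id2 and Id3. They were chosen by name, and every chromatin interaction with a bin within 5 kb of a member's gene body was taken as an interaction of that gene. These were 74 of 36274 H3K27ac interactions in untreated cells, 66 of 28210 after IAA, 48 of 49630 CTCF interactions and 24 of 23630 RAD21 interactions. All 9 genes had at least 1 interaction in at least 1 list, and no filter on low values was applied.

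The study used MNase HiChIP, in which crosslinked chromatin is cut with micrococcal nuclease, neighbouring ends are ligated, and ligated DNA is enriched with an antibody. All 9 libraries came from E14 mouse embryonic stem cells of the genotype CTCF AID, so the untreated cells carry the degron as well; IAA is an auxin that triggers degradation of AID-tagged proteins. The cells grew in serum-free medium with LIF, PD0325901 and CHIR99021. H3K27ac, an acetylation of histone H3 that marks active regulatory DNA, was profiled in 2 untreated libraries and 2 libraries after 12 h of IAA. CTCF (2 libraries) and the cohesin subunit RAD21 (3 libraries) were profiled in untreated cells only. CTCF protein levels were not analysed here, nor were the CTCF and RAD21 contact maps of treated cells. Whether the E14 line is 1 clone was not given in the sources used here.

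The deposited values are 1 list per group, pooled over its replicates, so no spread between replicates could be measured. Each row gives the number of contacts between 2 bins that passed a q-value of 0.05; a pair missing from a list did not pass and is not shown to be absent. The lists rest on 12551236 contacts for untreated H3K27ac, 14629323 for H3K27ac after IAA, 2839756 for CTCF and 1517698 for RAD21, as the rows' model totals give them. Their median interaction held 13 to 14 contacts. Of 10 embryonic stem cell marker genes, 9 had an H3K27ac interaction at the start-site bin in untreated cells (116 interactions in all, 87 after IAA), with Esrrb at 0. Of 17 markers of primitive endoderm, mesoderm, neural, trophoblast and fibroblast cells, 4 had any (4 interactions, and 0 after IAA).

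NODAL is a secreted ligand of the TGF-beta family that signals through activin receptors and needs the co-receptor CRIPTO, the product of Tdgf1. The activated SMAD proteins enter the nucleus and act with DNA-binding partners such as the forkhead factor FOXH1. Their targets include Nodal itself and the secreted antagonists Lefty1 and Lefty2, which makes a feedback loop used in patterning the early embryo. Smad7 encodes an inhibitory SMAD and Skil encodes the SMAD co-repressor SnoN, both also targets of the signal they restrain. Id1, Id2 and Id3 encode inhibitors of bHLH transcription factors and are direct targets of BMP signalling, which is known to support self-renewal of mouse embryonic stem cells.

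Sequence is shown for bins of the Lefty, Nodal and Id loci that held a match to 1 of 2 motifs and anchor interactions described further on. The first set is from H3K27ac bins that held the letters AATCCACA, searched on both strands without mismatch. These letters are 1 form of AATNCACA, a simple pattern used here for FOXH1 and not checked against measured FOXH1 sites. The upstream Lefty2 bin chr1:180888001-180890000 and the intergenic bin chr1:180924001-180926000, a partner of both Lefty genes, each held 2 copies, 83 and 63 bases apart from start to start. Nodal's bin chr10:61418001-61420000 held 1 copy, and 3 partner bins of Nodal and Smad7 that are not shown held at least 1, among them the Adamts14 bin chr10:61198001-61200000. Each 68-base window below is given 5′ to 3′ on the strand of the match, on GRCm38 (mm10), with the 8 matched bases in capitals.
Lefty2 upstream bin, first copy, plus strand, chr1:180888863-180888930: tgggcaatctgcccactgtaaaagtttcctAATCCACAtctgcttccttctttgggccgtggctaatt
Lefty2 upstream bin, second copy, plus strand, chr1:180888946-180889013: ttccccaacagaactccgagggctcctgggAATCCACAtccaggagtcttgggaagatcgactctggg
Bin between the Lefty genes, first copy, minus strand, chr1:180924784-180924851: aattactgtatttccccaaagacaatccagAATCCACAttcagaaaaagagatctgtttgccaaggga
Bin between the Lefty genes, second copy, minus strand, chr1:180924847-180924914: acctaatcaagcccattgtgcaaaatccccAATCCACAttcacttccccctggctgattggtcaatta
Nodal bin just after the start site, plus strand, chr10:61419269-61419336: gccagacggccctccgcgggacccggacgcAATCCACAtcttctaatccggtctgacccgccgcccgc

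At least 1 AATCCACA was present in 5 of the 71 member anchor bins of the untreated H3K27ac list (7.04%) and in 6.91% of all 27304 anchor bins of that list. With bins called only after IAA included, it was 6 of 93. At least 2 copies within 100 bases were present in 15 of the 27304 bins (0.0549%), and in 2 of the 71 member bins, both of them the Lefty bins above. The spacing was looked at after the matches were seen. For the wider pattern AATNCACA the shares were 28.0% of all bins and 20 of 71 member bins (28.2%). A match is a string of letters, not a measured binding site.

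The second set is from CTCF-list anchors next to Id2, Id3 and Lefty2. The CTCF core motif, searched on both strands with up to 1 mismatch, was present in 30 of 54 member anchor bins (55.6%) against 41.7% of all 34038 CTCF-list anchor bins. Each 34-base window below is given 5′ to 3′ on the strand of the match, with the 14 matched bases in capitals.
Id2 anchor past the gene end, plus strand, chr12:25092416-25092449: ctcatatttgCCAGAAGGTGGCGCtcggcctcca
Id2 partner 323 kb away, minus strand, chr12:25415444-25415477: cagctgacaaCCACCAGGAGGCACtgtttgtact
Id2 partner 1204 kb away, minus strand, chr12:26296185-26296218: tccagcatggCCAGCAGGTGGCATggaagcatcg
Id2 partner 1323 kb away, minus strand, chr12:26415326-26415359: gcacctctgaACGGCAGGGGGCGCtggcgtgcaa
Id3 anchor past the gene end, minus strand, chr4:136149910-136149943: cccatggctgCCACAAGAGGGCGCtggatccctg
Id3 partner 79 kb away, plus strand, chr4:136070106-136070139: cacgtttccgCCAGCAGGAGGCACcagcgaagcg
Lefty2 partner upstream, plus strand, chr1:180874169-180874202: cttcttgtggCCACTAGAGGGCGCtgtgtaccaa
Lefty2 anchor past the gene end, plus strand, chr1:180901281-180901314: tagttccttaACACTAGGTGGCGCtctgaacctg

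The 9 genes differed widely in how many H3K27ac interactions they had. Smad7 had 25 in untreated cells, more than 98.3% of 21728 protein-coding genes counted in the same way. Nodal had 19 (more than 97.0% of genes), Tdgf1 14 (94.9%) and Lefty2 8 (89.6%). Id1 had 5 (83.2%), Id3 had 2 (68.5%), Lefty1 and Skil had 1 each (57.7%), and Id2 had 0. Within the gene bodies alone, without the 5 kb on each side, Smad7 had 23, Nodal 15, Tdgf1 10, Skil, Id1 and Id3 1 each, and Lefty2, Lefty1 and Id2 0, so that all 8 Lefty2 interactions lay in its flanks. For comparison, 42.3% of protein-coding genes had any untreated H3K27ac interaction and 38.6% had any after IAA. After IAA the counts were 27 for Smad7, 15 for Nodal, 13 for Tdgf1, 7 for Lefty2, 2 each for Lefty1 and Id1, 1 for Id3, and 0 for Skil and Id2. The order in the CTCF list was different: Id2 led with 16 interactions, followed by Id1 and Id3 with 8 each, Lefty2 and Tdgf1 with 5 each, Smad7 with 4 and Nodal with 2, while Lefty1 and Skil had 0. RAD21 counts were 6 for Id1 and Id2, 4 for Id3, 2 for Lefty2, Tdgf1 and Smad7, 1 for Nodal and Skil, and 0 for Lefty1. The CTCF order also rests on the flanks: within gene bodies alone Tdgf1 led with 5, followed by Smad7 with 3, Nodal with 2 and Id1 with 1, and Id2, Id3 and Lefty2 had 0. Within gene bodies alone the RAD21 counts were 1 each for Nodal, Tdgf1 and Smad7 and 0 for the other members. At least 1 interaction was listed for 54.3% of all protein-coding genes with CTCF and for 42.3% with RAD21.

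**Figure D1:**
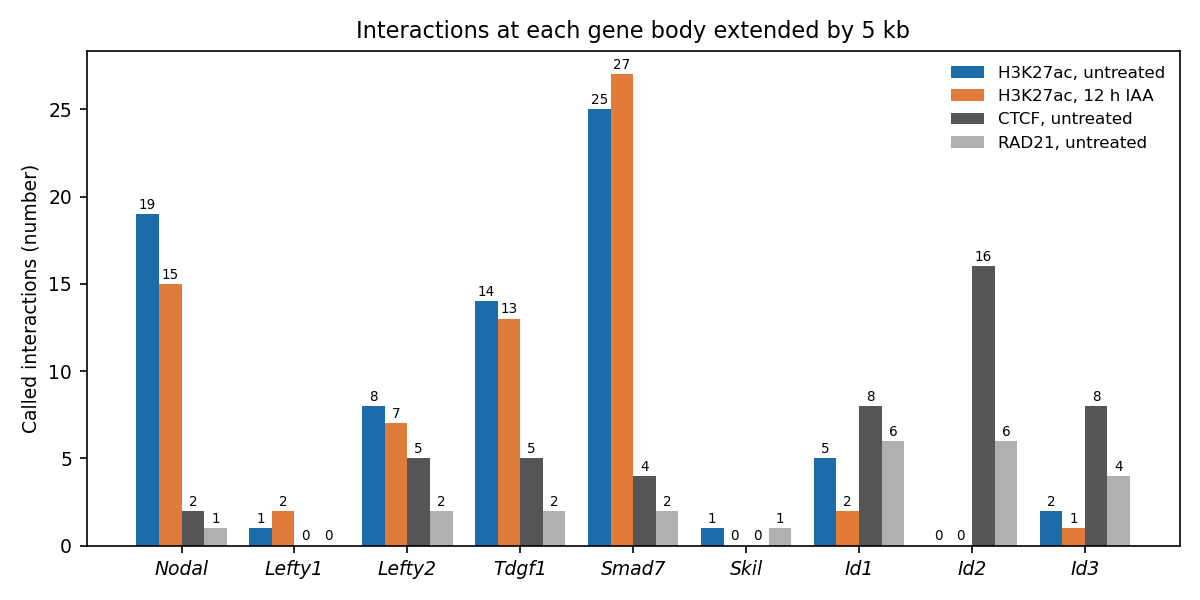
Number of called interactions (vertical axis) at each of the 9 genes, with 1 bar for each pooled list and no error bars. Smad7, Nodal and Tdgf1 have the tallest H3K27ac bars (25, 19 and 14 untreated), and Id2 has 16 CTCF interactions but 0 with H3K27ac.

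The main comparison asked what happened to the genes' H3K27ac interactions after 12 h of IAA. Of the 74 untreated interactions, 37 (50%; 95% Wilson interval 38.9 to 61.1) were called again at the same bin pair after IAA, against 42.9% of all untreated interactions. Of the 66 after IAA, 56.1% (44.1 to 67.4) had been called in untreated cells, against 55.1% of the whole list. These intervals cover counting error only. The 37 member interactions called only without treatment had a median of 12 contacts and those called again a median of 18, the same medians as over the whole list. The share called again was 85.7% (60.1 to 96.0) for Tdgf1, where 12 of 14 were found again, and 9 of 19 for Nodal, 12 of 25 for Smad7, 3 of 8 for Lefty2 and 1 of 5 for Id1. None was found again among the 1 of Lefty1, the 1 of Skil and the 2 of Id3. Whether these genes differ in this share was not tested.

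Contacts at the 37 shared interactions summed to 964 in untreated cells and 930 after IAA. Scaled to the totals of all 15551 shared interactions, the summed log2 ratio of IAA over untreated was -0.02 (95% exact counting interval -0.15 to 0.11). The median log2 ratio was 0.00 for members and 0.03 for all shared interactions, with SDs over interactions of 0.42 and 0.43. After IAA, 18 of the 37 were higher and 19 lower than the scaled total; the lower share was 51.4%, against 46.2% of all shared interactions. A two-sided exact binomial test, adjusted by the Benjamini-Hochberg method over all 15551 shared interactions, called 0 member interactions in either direction. Over all shared interactions 0.135% were called, 0.0965% higher and 0.0386% lower after IAA. Fisher's exact test also called 0. At an unadjusted p under 0.05 there were 2 member interactions, 1 at Tdgf1 and 1 at Smad7, against 4.41% of all shared interactions. The test compares 2 pooled lists rather than conditions, since no replicate values enter it.

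**Figure D2:**
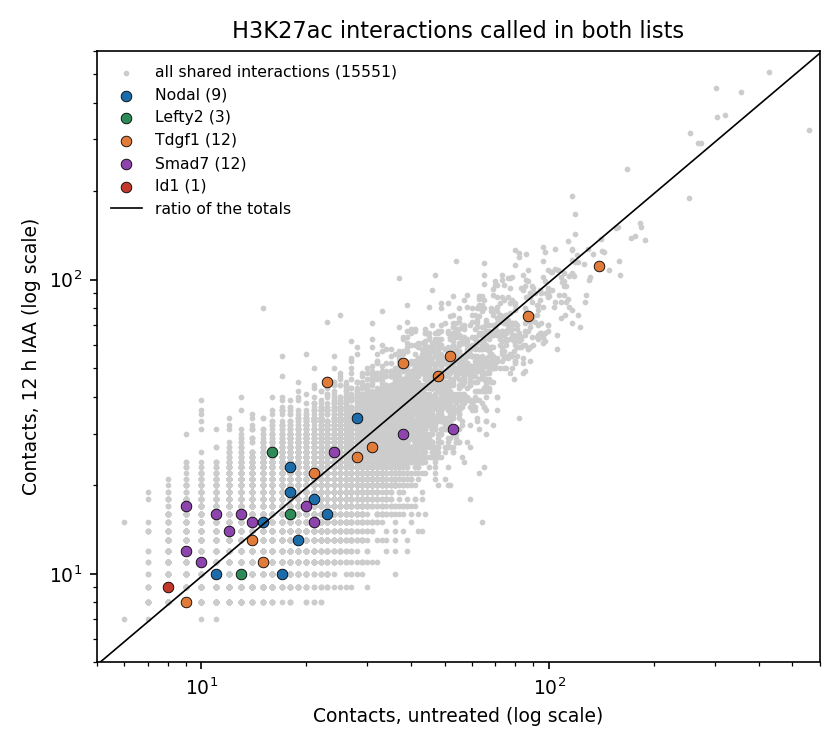
Contacts of each H3K27ac interaction called in both lists, untreated (horizontal axis, log scale) against 12 h IAA (vertical axis, log scale); grey points are all 15551 shared interactions, coloured points those of 5 genes, and the line is the ratio of the totals. The 37 member points lie on both sides of the line, 18 above and 19 below.

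Nodal, the ligand (chr10:61417972-61425338, plus strand), had all but 1 of its H3K27ac interactions on 3 adjoining bins, which hold the region just upstream, the start site and the first part of the gene. The exception, with 13 contacts after IAA only, joined chr10:61412001-61414000 to chr10:61398001-61400000. The start-site bin chr10:61416001-61418000 had a coverage of 7454 in untreated cells and 7474 after IAA, and was an anchor of 8 and 7 interactions. The interactions with most contacts joined these bins to an intergenic bin centred 9.0 kb upstream of the start site. Between chr10:61408001-61410000 and chr10:61414001-61416000 there were 28 contacts in untreated cells and 34 after IAA. From the same upstream bin to the start-site bin there were 33 contacts in untreated cells, and the pair was not called after IAA; with chr10:61418001-61420000 there were 23, again without a call after IAA. The next bin upstream, chr10:61406001-61408000, had 21 contacts with the start-site bin untreated and 18 after IAA, and 18 and 19 with chr10:61414001-61416000. Both upstream bins thus had partners at Nodal in both lists, while some pairs of adjoining bins passed the threshold in untreated cells alone.

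Farther upstream, the intergenic bin chr10:61398001-61400000 had 23 contacts with the start-site bin untreated and 16 after IAA. The start site of Pald1 lay in the partner bin chr10:61382001-61384000, which had 18 contacts with the Nodal start-site bin untreated and 23 after IAA. With the next Nodal bin, chr10:61418001-61420000, it had 19 and 13, and with chr10:61414001-61416000 it had 13 untreated and no call after IAA. Inside Pald1, chr10:61374001-61376000 had 13 contacts with chr10:61418001-61420000 after IAA only. Downstream, the bin with the start site of Eif4ebp2, an inhibitor of cap-dependent translation, had 17 contacts untreated and 10 after IAA (exact binomial p = 0.248, adjusted p = 1). The longest pairs were each called in 1 list. In untreated cells the start-site bin had 8 contacts with an Adamts14 bin, chr10:61198001-61200000, 218 kb away. After IAA only, the start-site bin with that of Sgpl1, 270 kb away, held 9 contacts, and the next Nodal bin, chr10:61418001-61420000, had 8 with chr10:61830001-61832000, 412 kb away. Over the 9 shared Nodal interactions contacts were 170 untreated and 158 after IAA, a log2 ratio of -0.08 (-0.40 to 0.24). The interval includes 0, and 4 of the 9 were higher and 5 lower. When each anchor could differ by 1 bin, so that sums ran over different numbers of pairs, the Nodal ratio was -0.55. By common partner bins over both H3K27ac lists the genes most like Nodal were Sgpl1 (2 bins, Jaccard index 0.11) and Pald1 (2 bins, 0.11).

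Nodal had 2 CTCF interactions, more than 56.7% of protein-coding genes. A bin in Adamts14, chr10:61199001-61200000, was joined to chr10:61423001-61424000 inside the Nodal gene by 16 CTCF contacts and 8 RAD21 contacts over 224 kb. The same Adamts14 bin had 12 CTCF contacts with chr10:61418001-61419000. None of the 19 untreated H3K27ac interactions of Nodal lay on the bin pair of a CTCF or RAD21 interaction.

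The antagonists Lefty2 (chr1:180893108-180899103) and Lefty1 (chr1:180935022-180938400) lie in the same orientation on the plus strand. In both lists the interactions of this locus met at the bin chr1:180888001-180890000, which is intergenic, centred 4.1 kb upstream of the Lefty2 start site, and carries the first pair of AATCCACA letters shown above. Of the 8 untreated Lefty2 interactions 7 had this bin as an anchor. The bin holding the Lefty2 start site itself had 0 interactions in either list. Coverage of the upstream bin was 5491 untreated and 4850 after IAA, a scaled log2 ratio of -0.36. The central 95% of all 16828 bins in both lists ran from -0.30 to 0.41, so this bin lay just below that range; the other 13 member bins in both lists lay inside it, up to 0.18.

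3 interactions of the upstream bin were called in both lists, of which 2 are described. With the start-site bin of Sde2 it had 16 contacts untreated and 26 after IAA (log2 ratio 0.73, exact binomial p = 0.123, adjusted p = 1). With the bin between the Lefty genes, chr1:180924001-180926000, it had 13 and 10. None of the 3 differed beyond counting error. Summed over them, contacts were 47 and 52, a log2 ratio of 0.17 (-0.42 to 0.78).

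The other interactions of the upstream bin were called in 1 list only. In untreated cells it had 19 contacts with chr1:180874001-180876000, 14 with a bin in an Ephx1 intron 90 kb away, 13 with the start-site bin of H3f3a and 12 with chr1:180876001-180878000. After IAA it had 15 contacts with an intergenic bin 14 kb away and 8 with another bin in an Ephx1 intron 126 kb away. After IAA it also had 11 contacts with the Lefty1 start-site bin chr1:180934001-180936000 over 46 kb (the authors' q = 0.00139). It was 1 of 2 H3K27ac interactions with an end within 5 kb of each Lefty gene; the other was called in untreated cells only, so each list held 1 such interaction. The pair with the Lefty1 start-site bin was not in the untreated list, whose smallest listed contact count was 6; a change in its contacts was not tested, since the untreated value is not given.

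Lefty1 had 1 interaction untreated, the one just mentioned that also lies within 5 kb of Lefty2, and 2 after IAA. After IAA the bin chr1:180924001-180926000 had 12 contacts with chr1:180932001-180934000, 2.0 kb upstream of the Lefty1 start site. Counting partner bins outside a gene's own window, the Lefty genes had 0 in common in untreated cells (of 1 for Lefty1 and 7 for Lefty2). After IAA they had 1 in common, the bin between them, which is 50% of the 2 for Lefty1 and 25% of the 4 for Lefty2; it was 0 without the 5 kb extension and 0 at a q of 0.01 or less. This definition was settled after a first count that included bins inside the windows, which gave 1 and 2. No bin was therefore a partner of both genes in both conditions, and the untreated list held no interaction of the Lefty1 start-site bin.

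**Figure D3:**
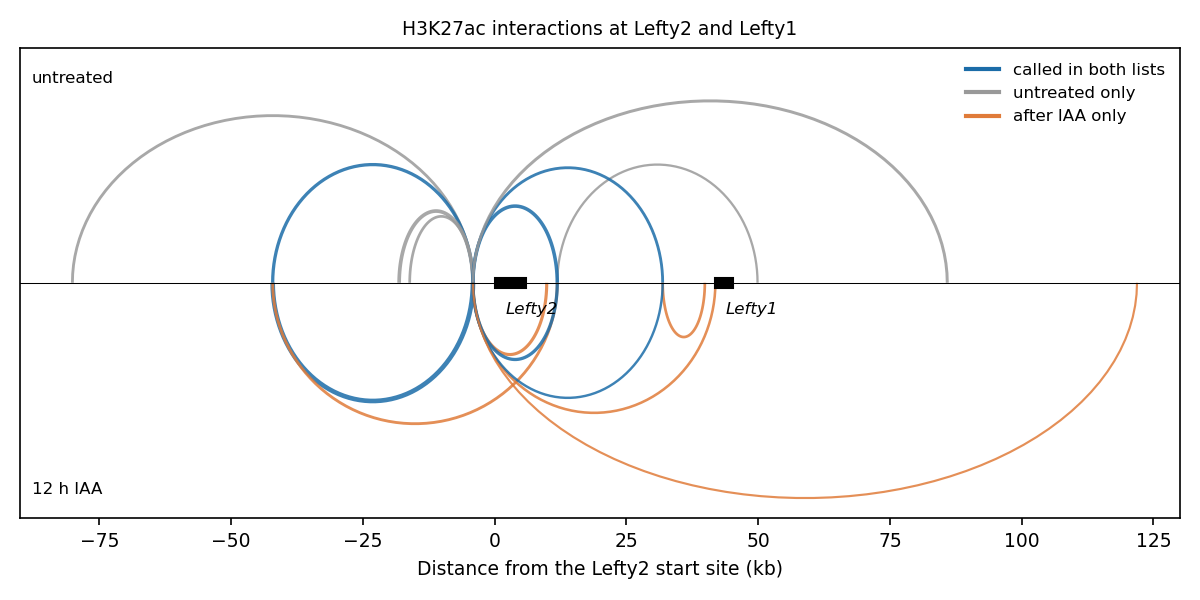
H3K27ac interactions at Lefty2 and Lefty1 as arcs between bin centres, untreated above the line and 12 h IAA below; the horizontal axis is the distance from the Lefty2 start site in kb, arc height follows span, line width follows contacts, and black boxes are the genes. Most arcs meet 4.1 kb upstream of Lefty2, and the arc that ends at the Lefty1 start site is present below the line only.

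The Lefty genes share sequence, and whether this affected the placing of reads was not tested. The longest aligned stretches between their windows were 393 bases at 97.7% identity, 777 bases at 90.3% and 593 bases at 76.6%. None of these overlaps the upstream hub bin, but the 593-base stretch falls in both start-site bins. The alignment compared the plus strands only, so inverted similarity could not be found. It also did not reach the AATCCACA pair in the bin between the genes. Whether the hub bin resembles that stretch was therefore not tested. By partner bins, among the genes most like Lefty1 were Tmem63a (3 bins, Jaccard index 0.75, with overlapping windows) and Ephx1 (2 bins, 0.50). For Lefty2, Ephx1 (2 bins, 0.20) and Tmem63a (2 bins, 0.18) were among the most like.

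CTCF anchors lay on both sides of Lefty2, and no CTCF or RAD21 interaction was listed for Lefty1. The bin chr1:180874001-180875000 had 38 CTCF contacts with chr1:180901001-180902000, past the gene end, 34 with chr1:180889001-180890000 in the hub bin, and 22 with chr1:180900001-180901000. The anchor past the gene end also had 23 CTCF and 10 RAD21 contacts with chr1:180974001-180975000 in Tmem63a, and 15 CTCF contacts with chr1:180976001-180977000. RAD21 joined chr1:180874001-180875000 to chr1:180888001-180889000 with 16 contacts. The untreated H3K27ac pair of the hub with chr1:180874001-180876000 lay on both a CTCF and a RAD21 pair, and it was among those not called after IAA.

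Tdgf1, which encodes the NODAL co-receptor (chr9:110939603-110946158, minus strand), had the interactions with the most contacts of the 9 genes. Its start-site bin chr9:110946001-110948000 was joined to a run of bins in the neighbouring gene Lrrc2. The pair with chr9:110952001-110954000 held 139 contacts untreated and 111 after IAA (log2 ratio -0.30, exact binomial p = 0.114, adjusted p = 1). With chr9:110960001-110962000 there were 87 and 75, and with chr9:110954001-110956000 there were 52 and 55. All 3 were called in both lists, and none differed beyond counting error.

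The member interaction with the lowest p was also here. The start-site bin and chr9:110964001-110966000, in an Lrrc2 intron, had 23 contacts untreated and 45 after IAA. The log2 ratio was 1.00, with an exact binomial p of 0.00722 and an adjusted p of 0.655, so it did not pass. Between chr9:110948001-110950000 and chr9:110960001-110962000 there were 38 contacts untreated and 52 after IAA. The first of these bins is centred 2.8 kb from the Tdgf1 start site and 2.5 kb from that of Lrrc2. The Lrrc2 start-site bin, chr9:110950001-110952000, also lay within 5 kb of Tdgf1. It had 48 contacts with chr9:110960001-110962000 untreated and 47 after IAA. Contacts of these bins cannot be assigned to either gene alone. The 3 interactions called in 1 list only shared the bin chr9:110944001-110946000. It had 24 contacts with chr9:110954001-110956000 and 20 with chr9:110960001-110962000 in untreated cells, and 16 with chr9:110962001-110964000 after IAA. A distant partner was kept: an intronic bin of Dclk3, chr9:111486001-111488000, had 15 contacts with the start-site bin untreated and 11 after IAA, over 540 kb. Contacts over the 12 shared interactions were 505 untreated and 491 after IAA, a log2 ratio of -0.01 (-0.19 to 0.17), the narrowest interval of the 5 genes with a shared interaction.

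The Tdgf1 start-site bin carried no peak flag in either list although its coverage was 8994 untreated and 9236 after IAA. Of the 4110 untreated bins without a flag, 99.98% had less coverage. Every partner bin listed with it carried the flag; pairs of this bin with unflagged bins cannot be counted from the lists.

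CTCF interactions of Tdgf1 had 1 anchor, chr9:110944001-110945000 inside the gene. Its 5 partners held 29 contacts (53 kb away), 27 (in Lrrc2, 10 kb away), 25 (22 kb away), 17 (in Lrrc2, 21 kb away) and 8 (in Trank1, 370 kb away). RAD21 joined the start site to chr9:110954001-110955000 in Lrrc2 with 12 contacts, and the adjoining bin chr9:110947001-110948000 with 11. Of the untreated H3K27ac interactions, the pairs of chr9:110944001-110946000 with chr9:110954001-110956000 (24 contacts) and with chr9:110964001-110966000 (14 contacts, 13 after IAA) lay on a CTCF pair. The pair of the start-site bin with chr9:110954001-110956000, with 52 and 55 contacts, lay on a RAD21 pair.

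Smad7, the inhibitory SMAD (chr18:75367529-75395935, plus strand), had the most interactions. Its start-site bin chr18:75366001-75368000 was an anchor of 19 interactions in each list, and its coverage was 7633 untreated and 8895 after IAA. The largest count was with an intergenic bin 22.5 kb upstream, chr18:75344001-75346000, with 53 contacts untreated and 31 after IAA. Its log2 ratio was -0.74, with an exact binomial p of 0.0219 and an adjusted p of 0.942, so it did not pass either. With chr18:75360001-75362000 the start-site bin had 38 contacts untreated and 30 after IAA. With chr18:75342001-75344000, adjoining the first of these, there were 24 and 26. The 12 shared interactions held 234 and 220 contacts, a log2 ratio of -0.06 (-0.33 to 0.21). Of the 12, 8 were higher and 4 lower after IAA, with a median log2 ratio of 0.16. Without the pair of 53 and 31 contacts the sums were 181 and 189, a log2 ratio of 0.09 (-0.21 to 0.39). When each anchor could differ by 1 bin, so that sums ran over different numbers of pairs, the Smad7 ratio was 0.32.

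Smad7 also reached into introns of both neighbouring genes, Dym upstream and Ctif downstream. The Dym bin chr18:75250001-75252000 had 20 contacts untreated and 17 after IAA over 116 kb, and the adjoining chr18:75248001-75250000 had 9 and 17. The Ctif bin chr18:75464001-75466000 had 21 and 15 contacts over 98 kb. Among the pairs called in 1 list only, the start-site bin had 15 contacts with chr18:75308001-75310000 and 14 with the Ctif bin chr18:75494001-75496000 in untreated cells. After IAA, chr18:75342001-75344000 had 16 contacts with chr18:75364001-75366000, and the start-site bin had 14 with chr18:75340001-75342000. Dym (11 common partner bins, Jaccard index 0.32) and Ctif (10, 0.27) were the genes most like Smad7 by partner bins, both measured over the 2 H3K27ac lists.

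A CTCF pair of 17 contacts, also in the RAD21 list with 12, joined a Dym bin 228 kb away to the first bin of Smad7, chr18:75367001-75368000. The same Smad7 bin had 13 CTCF contacts with chr18:75295001-75296000, and 12 with chr18:75598001-75599000 in Ctif. Another pair of 13 CTCF contacts joined chr18:75295001-75296000 to chr18:75366001-75367000. RAD21 joined that Ctif bin to chr18:75366001-75367000 with 10 contacts. The untreated H3K27ac pair with chr18:75294001-75296000 (10 contacts) lay on a CTCF pair and was not called after IAA. The adjoining bin, chr18:75292001-75294000, had 10 contacts with the same start-site bin after IAA only.

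**Figure D4:**
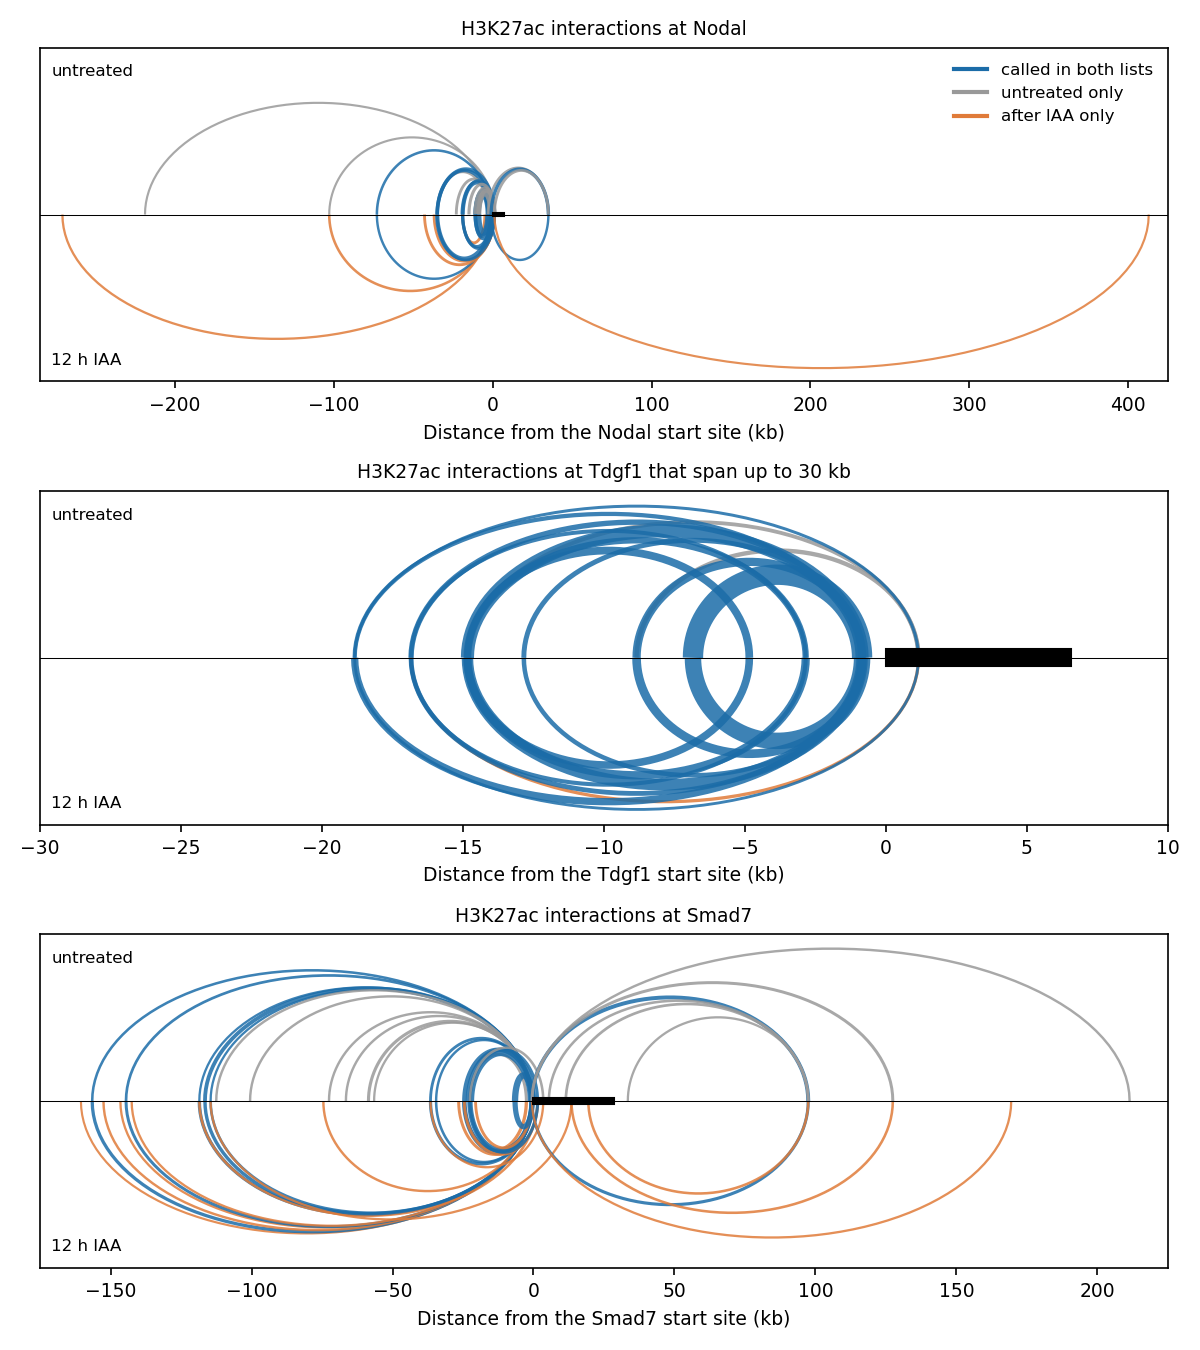
H3K27ac interactions at Nodal, Tdgf1 and Smad7 as arcs, untreated above each line and 12 h IAA below; horizontal axes give kb from each gene's start site along its strand, line width follows contacts, and black boxes are the genes. Of Tdgf1's 14 untreated interactions 12 are called in both lists, counting 2 over 538 and 540 kb that are not drawn. Nodal and Smad7 mix arcs called in both lists with arcs called in 1.

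Skil, the co-repressor gene (chr3:31095058-31122577), had 1 H3K27ac interaction. Its start-site bin chr3:31094001-31096000 had 9 contacts with an intergenic bin 38.1 kb upstream in untreated cells, and the pair was not called after IAA. RAD21 joined chr3:31061001-31062000 to chr3:31094001-31095000 with 9 contacts, and no CTCF interaction was listed.

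Within 5 kb of their bodies the Id genes had 32 of the members' 48 CTCF interactions; within the bodies alone they had 1 of 11. At Id1 (chr2:152736251-152737410) 4 of the 5 untreated H3K27ac interactions went to 1 bin, chr2:152830001-152832000, with the start site of Bcl2l1, an anti-apoptotic gene. The Id1 start-site bin had 8 contacts with it untreated and 9 after IAA, the single shared interaction of the Id genes. Nearby bins had 9, 10 and 10 contacts with the Bcl2l1 bin in untreated cells and no call after IAA. The remaining untreated pair joined chr2:152728001-152730000 and chr2:152734001-152736000, upstream of the start site, with 13 contacts. After IAA alone, an H13 bin had 10 contacts with the Id1 start-site bin. Mcts2 (2 common partner bins, Jaccard index 0.25), H13 (2, 0.14) and Bcl2l1 (2, 0.08) were the genes most like Id1.

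Of the 4 H3K27ac pairs of Id1 with Bcl2l1, 3 lay on a CTCF or a RAD21 pair and 1, with 9 contacts untreated, on neither. The pair of the start-site bin lay on a CTCF pair of 14 contacts, and the 2 pairs just downstream (10 contacts each) lay on RAD21 pairs. The main CTCF anchor of Id1 was chr2:152742001-152743000, past the gene end, in which the search found 0 core motifs. It had 85 CTCF and 69 RAD21 contacts with chr2:152696001-152697000 in H13, and 59 CTCF and 36 RAD21 contacts with the Bcl2l1 start-site bin chr2:152831001-152832000. With chr2:152830001-152831000 it had 39 CTCF contacts. With chr2:152697001-152698000, also in H13, it had 26 CTCF and 15 RAD21 contacts. The counts of 85 and 69 were the largest CTCF and RAD21 counts of the 9 genes.

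Id2 (chr12:25093799-25097140, minus strand) had no H3K27ac interaction in either list and more CTCF interactions than 93.8% of protein-coding genes. All 16 shared 1 anchor, chr12:25092001-25093000, just past the 3′ end of the gene. The partners with most contacts were chr12:25181001-25182000 with 36, a Kidins220 bin with 35 and chr12:25100001-25101000 with 27. The reach extended to the start-site bin of Rnf144a, 1323 kb away, with 7 CTCF and 6 RAD21 contacts. RAD21 listed 6 interactions of the same anchor, 5 of them also in the CTCF list. The largest of these held 12 RAD21 and 11 CTCF contacts over 1204 kb, 11 RAD21 and 16 CTCF contacts over 979 kb, and 10 RAD21 and 18 CTCF contacts over 323 kb.

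The CTCF core letters at the Id2 anchor were on the plus strand. Of the 9 partners with matches on a single strand, 8 had them on the minus strand, so that the motifs faced each other. The remaining 1, on the plus strand, was chr12:25181001-25182000, the Id2 partner with most CTCF contacts (36). All Id2 partner sequences printed above are from the minus-strand partners. Over all members, 21 CTCF interactions had a match on 1 strand at each end: 13 were convergent (61.9%), 7 were on the same strand and 1 was divergent. The shares over all 14017 such CTCF interactions were 66.7% convergent, 30.9% same strand and 2.43% divergent. The 9 Id2 pairs share an anchor and are not independent of each other.

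At Id3 (chr4:136143497-136145755) the main CTCF anchor, chr4:136149001-136150000, again lay past the gene end. It had 83 CTCF and 47 RAD21 contacts with chr4:136070001-136071000, and 33 CTCF and 28 RAD21 contacts with the adjoining bin. The bin chr4:136150001-136151000 had 33 CTCF and 16 RAD21 contacts with the same partner. H3K27ac interactions were each called in 1 list. In untreated cells the Id3 start-site bin had 10 contacts with chr4:136136001-136138000, and chr4:136146001-136148000 had 8 with the start-site bin of Hnrnpr. After IAA the Rpl11 start-site bin had 12 contacts with chr4:136144001-136146000 in the gene.

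**Figure D5:**
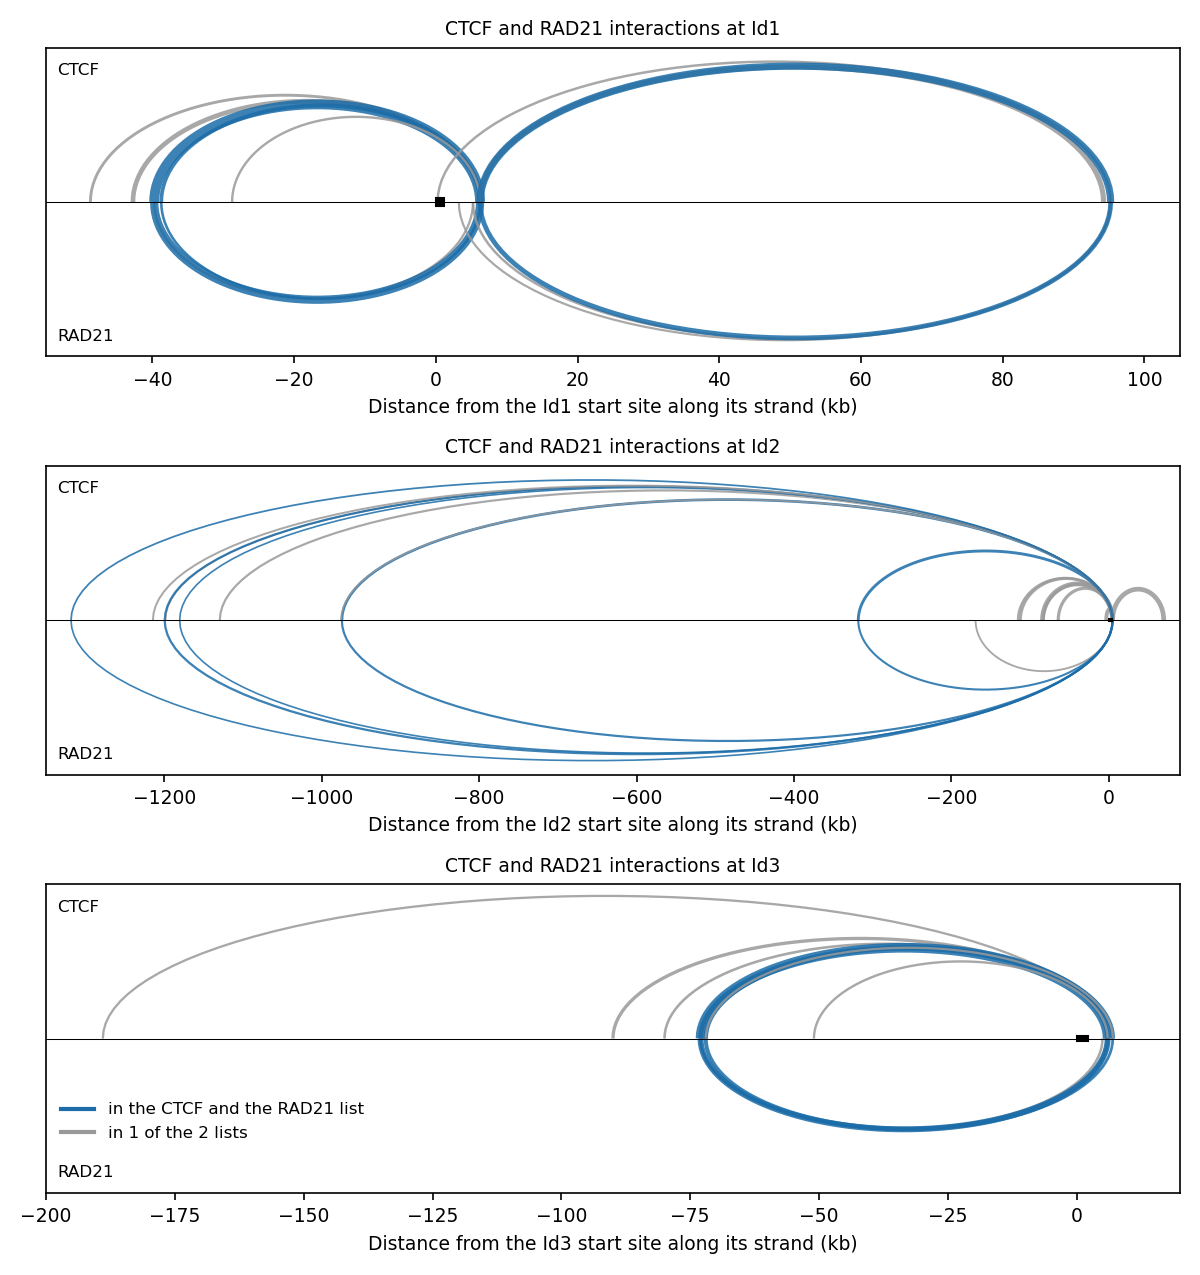
CTCF interactions (above each line) and RAD21 interactions (below) at Id1, Id2 and Id3 in untreated cells; horizontal axes give kb from each start site along the gene's strand, line width follows contacts, and blue marks pairs in both lists. Arcs of Id1 and Id3 meet just past the gene end with up to 85 and 83 CTCF contacts, and those of Id2 reach 1323 kb.

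A CTCF-list anchor within 5 kb past the gene end was found at 4 of the 9 genes (Lefty2, Id1, Id2 and Id3), against 18.6% of all protein-coding genes. Before the start site it was 4 of 9 against 29.99%, and in the gene body 4 of 9 against 44.2%. Of the members' 48 CTCF interactions 14 (29.2%) were also in the RAD21 list, against 34.4% of the whole CTCF list; the same 14 were 58.3% of the members' 24 RAD21 interactions, against 72.2%. Among the 74 untreated H3K27ac interactions, 5 lay on a CTCF pair (6.76% against 6.23% of the whole list) and 4 on a RAD21 pair (5.41% against 5.68%). After IAA the counts were 2 of 66 and 1 of 66, where the whole list had 3.27% and 3.38%. The untreated shares were close to those of the whole list, and the IAA counts are too small to set against theirs.

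A CTCF-list anchor bin was present at 1 end of 38 of the 74 untreated H3K27ac interactions and at both ends of 15. The whole list had 35.6% and 13.2%. A CTCF-list anchor lay between the ends of 25 of the 37 interactions called only in untreated cells (67.6%), 27 of the 37 shared (73.0%) and 25 of the 29 called only after IAA (86.2%). Over the whole lists these shares were 53.4%, 43.1% and 54.7%, lower in each class. The members' median spans were 56, 24 and 74 kb, against 28, 20 and 26 kb over the whole lists, and the part of span in these shares was not tested.

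The other genes of the pathway were counted in the same way. Of 39 ligands, receptors, SMADs, inhibitors and targets, 18 had an H3K27ac interaction in untreated cells and 16 after IAA. They had 107 interactions in each list, of which 55 were shared (51.4% called again, 42.0 to 60.7). Without Gdf3 the other 38 genes had 64 and 46, of which 24 were shared (37.5%, 26.7 to 49.7). Receptors had 9 and 10 interactions over 10 genes, the 6 SMADs and partners 15 and 8, the 5 inhibitors 22 and 16, and the 6 other targets 5 and 4. The 12 ligands and processing enzymes had 56 and 69, and 13 and 8 without Gdf3. The 3 genes with most untreated interactions were Gdf3, a NODAL-related ligand, with 43 (61 after IAA), Ski, a co-repressor related to Skil, with 15 (13), and Foxh1 with 12 (6).

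The exact binomial test called 2 of the 55 shared pathway interactions higher after IAA and 0 lower, where 0.0965% of all shared interactions were called higher. Both belonged to the Gdf3 bin chr6:122608001-122610000. Its contacts rose from 54 to 116 with chr6:122702001-122704000 (log2 ratio 1.13, exact binomial adjusted p = 0.00200). With chr6:122662001-122664000 they rose from 39 to 82 (log2 ratio 1.10, exact binomial adjusted p = 0.0430). The bin lies in the Gdf3 body beside the start-site bin, which had 1 interaction untreated and 3 after IAA. Which genes lie at the partner bins was not looked up. 3 further interactions had an unadjusted p under 0.05 without passing: Gdf3 with 27 and 50 contacts, Gdf3 with 21 and 50, and Pcsk6, which encodes a processing protease of NODAL, with 16 and 32. No member interaction had such a call.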

How the data were processed

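The authors' deposited files are 4 interaction lists with whole-number contact counts that were not normalised, 1 list per group pooled over replicates. Per the file headers, each row also holds bin coverage, peak flags, a signal of contacts expected by a model, the fraction of contacts that model gives the pair, and a q-value. Per the submitters' processing notes, the tools were Trim Galore, BWA, MACS2 and deepTools and the build mm10; per the labels, the list names carry FitHiC, with no version. Bins were 2 kb for H3K27ac and 1 kb for CTCF and RAD21. The members and gene lists were chosen with earlier results of these data known. Gene bodies (GENCODE M21, GRCm38) were extended by 5 kb. Shared bin pairs were compared by an exact two-sided binomial test scaled by the totals over all shared interactions, adjusted by Benjamini-Hochberg over the whole table (Python 3.11.15, scipy 1.17.1), and tested on simulated data. The interactions named at a gene were the 3 with most contacts in each list, the 2 with most called in 1 H3K27ac list only, up to 3 on CTCF or RAD21 pairs, those joining 2 members and those with an unadjusted p under 0.05; others named were chosen after their values were seen. Windows of Lefty1 and Lefty2, wider than those used to take interactions, were aligned on the plus strand only with blastn 2.17.0. Alternatives changed the extension, the q threshold, the minimum of contacts, the scaling, the match of bins and the test. 95% Wilson and exact intervals cover counting error only. Coordinates count from 1. Some results that involve 1 neighbouring gene, 2 of them Lefty interactions that the naming rule takes in, are not reported here.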

Additional observations from a re-analysis of the deposited data

How the results depend on the processing

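Of 60 recomputed main values, 47 stayed within the limits set for a change. The share of untreated interactions called again was 70.3% when each anchor could differ by 1 bin, against 65.7% over the whole list, and 64.9% at start-site bins alone. Start-site bins alone had 37 and 36 H3K27ac interactions before and after IAA. Without the extension there were 11 CTCF and 3 RAD21 interactions, and 1.96% of H3K27ac interactions lay on a RAD21 pair. With 1 bin of tolerance 18.9% lay on a CTCF pair, and no whole-list share at that tolerance is given here. Scaled by model contacts, which moves all shared interactions down by 0.25 on the log2 scale, the summed log2 ratio was -0.27. Scaled by anchor coverage, the summed log2 ratio was 0.07 over all members, 0.20 for Nodal, 0.61 for Lefty2 and 0.47 for Id1. For Tdgf1 and Smad7 it was 0.01 and -0.01 under that scaling. With 1 bin of tolerance, where sums run over different numbers of pairs, it was -0.55 for Nodal, 0.32 for Smad7 and -1.44 for Id1. The Lefty genes' common partner bin after IAA fell to 0 without the extension and to 0 at a q of 0.01. Counting bins inside the windows, an alternative chosen after seeing the data, gave 1 untreated and 2 after IAA. No member interaction was called under model-contact scaling, Fisher's exact test, a q of 0.01, either extension or an adjusted p of 0.01. Leaving out the largest Smad7 pair, counting motifs in untreated bins and leaving out Gdf3 were also chosen after seeing the data; the last gave 37.5% of other pathway interactions called again. Leaving out replicates was not run. No paired analysis was possible because each list holds the pooled replicates of its group. Calls made in 1 list only rest on the q threshold, and contacts of uncalled pairs are not given.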
